A study of Mus musculus with 2 samples.

Results

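The Dlk1-Meg3-Dio3 imprinted domain of mouse chromosome 12 was described in 2 sequencing libraries of embryonic stem (ES) cells by the 900 bins of 1 kb that lie between 110650001 and 111550000 on the mm9 build. Bins were chosen by position alone, out of 2638998 bins on chromosomes 1 to 19 and X. One library, labelled H2ABbd, came from crosslinked and sonicated chromatin precipitated with a rabbit antibody against the mouse histone variant H2ABbd (ChIP-seq). The other, labelled 5mC, came from sonicated, denatured DNA precipitated with monoclonal antibody 33D3 against 5-methylcytosine (MeDIP). Both came from mouse ES cells of a line not named in the labels, untreated apart from growth in LIF with no feeder cells, and no input library was used here. With 1 library per group there was no replicate check and no test between groups, and all intervals are 95% intervals of counting error. The deposited files are named for the opposite antibody to that in their sample's label, so every direction below rests on the labels. These files hold DNA reads and no expression, so markers of ES cells could not be checked.

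Genes of this domain are expressed from 1 parental chromosome only. Dlk1, a transmembrane ligand related to the Notch ligands, Rtl1, a gene derived from a retrotransposon, and Dio3, the deiodinase that inactivates thyroid hormone, are expressed mainly from the paternal chromosome. Meg3, Rian and Mirg are long noncoding RNA genes expressed from the maternal chromosome, and Rian and Mirg are hosts of small nucleolar RNAs and microRNAs. An intergenic control region between Dlk1 and Meg3 is methylated on the paternal chromosome and governs which chromosome expresses which genes. In cultured ES cells this methylation is known to vary between lines. H2ABbd is a short H2A variant that lacks the acidic patch of H2A and packs chromatin less tightly. Neither library separates the parental chromosomes.

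No mm9 annotation was used, so genes were placed by approximate positions, Dlk1 near 110690000, Meg3 from 110780000 and Dio3 near 111520000, and the control region was taken as 110764001 to 110770000. The RefSeq gene table, on GRCm38.p6, was used for gene order only. It lists Dlk1, Meg3, Rtl1, Rian, Mirg and Dio3 in this order, with 61 microRNA genes between Meg3 and Dio3 and 0 between Dlk1 and Meg3. The antibody against 5-methylcytosine binds methylated cytosine, which in mammals lies mostly at CpG. The promoters are therefore shown with their CpG dinucleotides, over the 250 bases before the gene start (RefSeq, GRCm38.p6, 5′ to 3′ on the gene's strand, each CG in capitals). Where they fall among the mm9 bins was not determined.
Dlk1: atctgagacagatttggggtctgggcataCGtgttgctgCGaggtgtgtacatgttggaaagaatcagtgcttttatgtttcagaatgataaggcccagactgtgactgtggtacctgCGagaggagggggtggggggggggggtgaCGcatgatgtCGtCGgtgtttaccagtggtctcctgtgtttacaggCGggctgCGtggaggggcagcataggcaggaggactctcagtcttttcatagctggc
Meg3: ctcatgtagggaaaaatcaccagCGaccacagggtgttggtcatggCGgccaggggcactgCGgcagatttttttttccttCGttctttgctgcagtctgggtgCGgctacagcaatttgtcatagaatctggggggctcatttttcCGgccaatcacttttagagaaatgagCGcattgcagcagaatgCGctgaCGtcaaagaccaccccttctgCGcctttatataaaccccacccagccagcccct
Rian: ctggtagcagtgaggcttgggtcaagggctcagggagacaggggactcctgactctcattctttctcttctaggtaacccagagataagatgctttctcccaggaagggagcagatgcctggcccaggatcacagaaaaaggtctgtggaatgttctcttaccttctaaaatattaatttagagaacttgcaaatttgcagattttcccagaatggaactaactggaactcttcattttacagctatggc
Dio3: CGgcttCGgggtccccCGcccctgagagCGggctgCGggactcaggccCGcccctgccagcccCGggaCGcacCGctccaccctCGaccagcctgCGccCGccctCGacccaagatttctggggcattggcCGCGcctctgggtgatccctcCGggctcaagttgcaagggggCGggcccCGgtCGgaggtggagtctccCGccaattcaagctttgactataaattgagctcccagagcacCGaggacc
These promoters differed widely in CpG content. Dio3 had 21 CpG in 250 bases and 69.6% GC, and 16.3% of the 32851 promoters in the table had at least as many CpG. Dlk1 had 8 CpG (43.0% of promoters had at least as many), and Meg3, at the first of its 2 listed starts, had 10 (37.8%). At its second start, not shown, Meg3 had 0 CpG and 50% GC. Rian had 0 CpG and 45.2% GC, whereas 92.1% of all promoters had at least 1. Mirg had 10 and Dio3os, the noncoding gene next to Dio3, had 44, which 0.539% of promoters reached. The table holds no promoter for Rtl1.

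Reads sharing chromosome, strand and 5′ end were reduced to 1 distinct read, which was moved 100 bp towards its 3′ end. The libraries held 1396198 distinct reads (H2ABbd) and 8051714 (5mC) on chromosomes 1 to 19 and X. Of all reads 60.1% (H2ABbd) and 13.1% (5mC) repeated a position already seen. A mean autosomal bin with a read in either library had 0.622 distinct reads (H2ABbd) and 3.55 (5mC), and below a level is the density of a stretch as a fold of that mean. The ratio of the libraries is H2ABbd over 5mC in RPM (reads scaled to the distinct reads of the library).

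Both libraries were denser in the domain than on the mean autosome, the library labelled H2ABbd by more. The domain held 1653 distinct reads of the library labelled H2ABbd, a level of 2.95 (2.81 to 3.10), and 4187 of the library labelled 5mC, a level of 1.31 (1.27 to 1.35). The ratio of the libraries was 2.28 (2.15 to 2.41). Of 2669 autosomal windows of 900 kb, 1.05% reached this H2ABbd level, 13.9% this 5mC level and 0.225% this ratio. The H2ABbd level depends on the treatment of repeated reads: with every read kept it was 1.48 and the ratio 1.27. With every read kept and the 0.1% most covered bins left out of the scale, the level was 3.36 and the ratio 2.52. Repeats made up 21.9% (H2ABbd) and 4.95% (5mC) of the reads in the domain, against 60.9% and 13.4% on the autosomes.

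The raised levels were not particular to the domain. Over the flanks (109000001 to 110650000 and 111550001 to 113000000) the library labelled H2ABbd stood at 3.58 on the proximal side and 3.95 on the distal side, and the library labelled 5mC at 1.42 and 1.65. The domain had 0.787 times the H2ABbd density of both flanks (0.746 to 0.830) and 0.858 times their 5mC density (0.829 to 0.887). The ratio of the libraries was 0.918 times that of the flanks (0.861 to 0.978). After random thinning of the 5mC reads to equal depth it was 1.01 times in the planned draw, but above 1 in only that draw of 20 (median 0.940). This difference did not stand against the spread along the chromosome. In 18 windows of 50 kb of the domain the ratio had a lowest value of 0.992, a median of 2.22 and a highest value of 4.21, and in 62 windows of the flanks 0.792, 2.16 and 5.31. The ranges overlapped, and the domain's median lay below the 2.38 of the proximal flank and above the 2.09 of the distal flank. Counts of 1 kb bins varied more than counting error alone gives, with a variance of 3.38 times the mean (H2ABbd) and 1.89 times (5mC) in the domain, so the intervals are too narrow as measures of the spread between stretches.

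**Figure D1:**
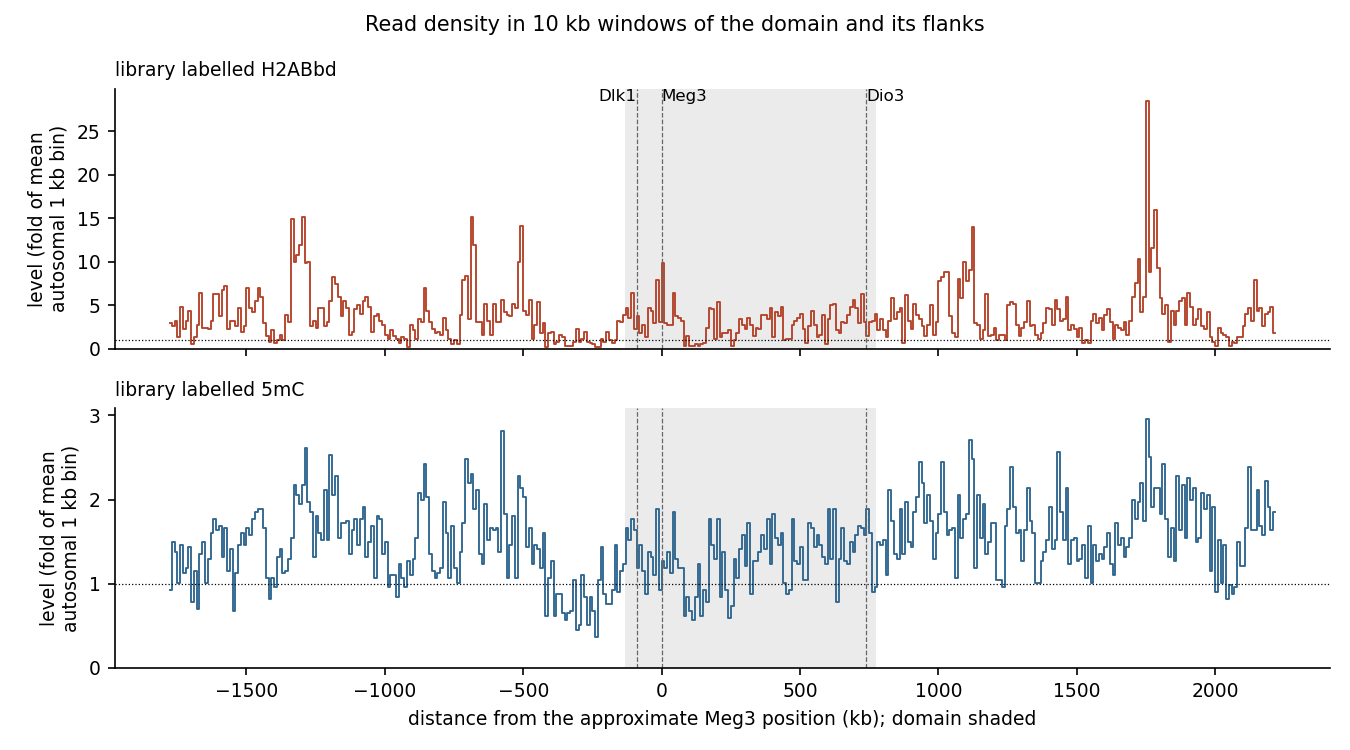
Level of each library (fold of the mean autosomal 1 kb bin, both axes from 0) in 10 kb windows along the domain (shaded) and its flanks, by distance in kb from the approximate Meg3 position, with dashed lines at Dlk1, Meg3 and Dio3 and a dotted line at the autosomal mean. The highest H2ABbd window of the domain, at the Meg3 position, reaches 9.81, below the 28.5 of the highest flank window.

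**Figure D2:**
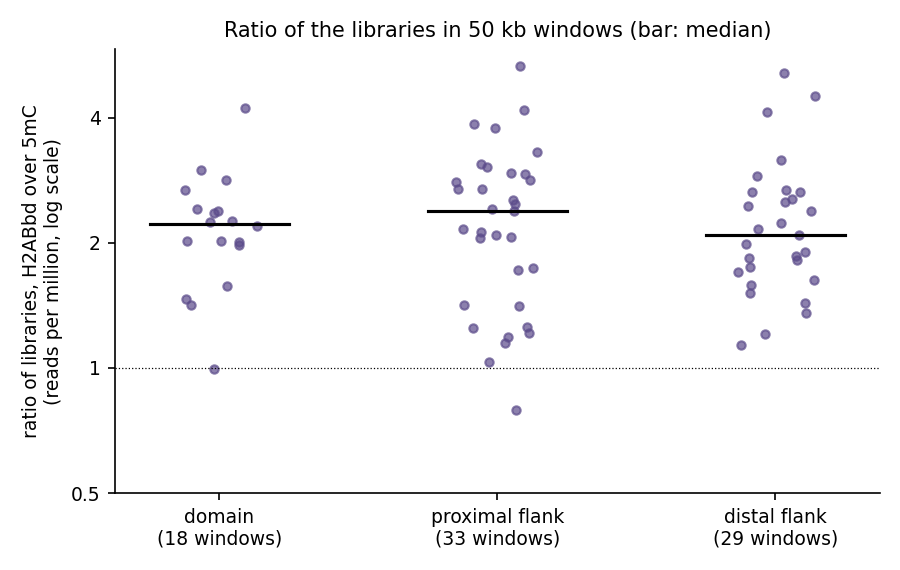
Ratio of the libraries (H2ABbd over 5mC in RPM, log scale) in windows of 50 kb of the domain and each flank. Points are windows and bars are medians, 2.22 in the domain, 2.38 in the proximal flank and 2.09 in the distal flank, and the 3 groups overlap.

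Within the domain the control region was the densest subregion in both libraries. Its 6 bins held, in order along the chromosome, 4, 12, 14, 3, 7 and 5 distinct reads of the library labelled H2ABbd. They held 13, 16, 11, 4, 2 and 6 of the library labelled 5mC. The bins starting at 110765001 and 110766001 were high in both libraries, the bin before them in the library labelled 5mC, and the bin at 110768001 in the library labelled H2ABbd alone. In all, the control region had 45 H2ABbd reads, a level of 12.1 (8.79 to 16.1), and 52 5mC reads, a level of 2.44 (1.82 to 3.20).

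Its density was 4.17 times that of the rest of the domain for H2ABbd (3.03 to 5.61) and 1.87 times for 5mC (1.40 to 2.46). The ratio of the libraries there, 4.99 (3.27 to 7.58), was 2.23 times that of the rest (1.45 to 3.40). Among autosomal windows of 6 kb, 0.123% reached this H2ABbd level and 0.919% this 5mC level, and 1.68% of those with at least 20 reads reached this ratio. Against both flanks the densities were 3.21 times (2.34 to 4.30) for H2ABbd and 1.60 times (1.19 to 2.10) for 5mC. Single flank windows, at 10 kb, went higher, up to levels of 28.5 (H2ABbd) and 2.96 (5mC) and a ratio of 9.75. The 2 bins before the control region held 1 H2ABbd read and 5 5mC reads together, and the 2 bins after it held 1 and 9. H2ABbd counts thus dropped at both bounds. The 5mC counts dropped within the control region, after the bin at 110766001, with no further drop in the 2 bins past its distal bound. The 7 bins past that bound held 21 5mC reads together. With every read kept the control region's H2ABbd level was 6.08 and its ratio 2.74. Without its densest bin the level was 9.97 and the ratio 4.36, and with 2 kb added on each side the level was 7.56. In the planned draw of 5mC reads thinned to equal depth, the control region held 4 of them and the domain 648. Its 5mC density was then not above the domain's, and other draws are not given for this region. Strands were even, with 48.9% of the H2ABbd reads and 48.1% of the 5mC reads on the plus strand, and no position held more than 3 reads.

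**Figure D3:**
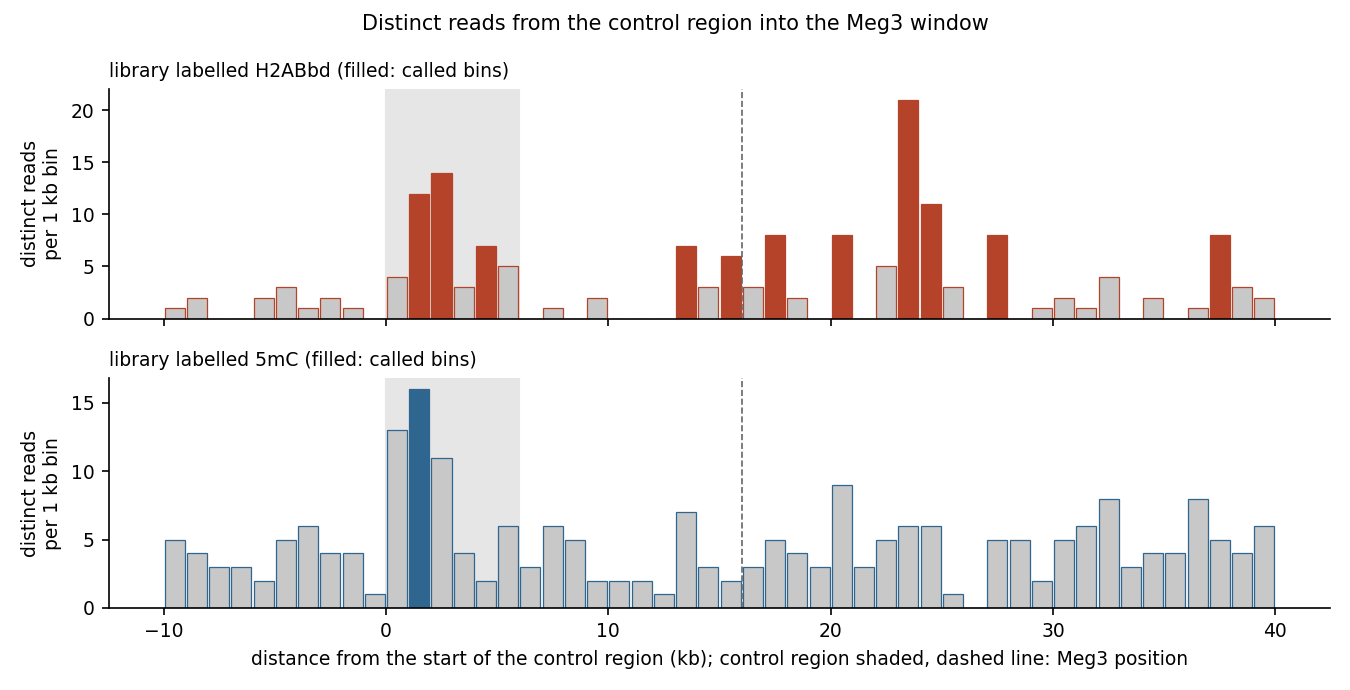
Distinct reads per 1 kb bin of each library (bars from 0, filled where the bin was called enriched) by distance in kb from the start of the control region (shaded), with a dashed line at the Meg3 position. H2ABbd reads peak in the control region at 14 per bin and again past the Meg3 position at 21, and 5mC reads peak in the control region at 16.

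Meg3, whose RNA is the first of the maternally expressed transcripts after the control region, had a H2ABbd level above that of the rest of the domain, while its 5mC level was near it. The 30 kb from the Meg3 position held 96 H2ABbd reads, a level of 5.14 (4.17 to 6.28), and 136 5mC reads, a level of 1.28 (1.07 to 1.51). The H2ABbd density was 1.79 times that of the rest of the domain (1.44 to 2.20), while the 5mC density was 0.974 times (0.815 to 1.16). The ratio there was 4.07 (3.10 to 5.33), reached by 0.372% of autosomal 30 kb windows.

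Most of this lay in the first 10 kb, which held 61 H2ABbd reads, the most of the 90 windows of 10 kb in the domain, and 45 5mC reads. Its ratio of 7.82 (5.23 to 11.8) was the highest of the domain, and 0.240% of 197948 autosomal windows with at least 20 reads reached it. Windows of the flanks went higher, up to 9.75 on the proximal side and 9.72 on the distal side. The bin from 110787001 to 110788000, starting 7 kb past the Meg3 position, held 21 H2ABbd reads and 6 5mC reads, and the next bin held 11 and 6. With every read kept the Meg3 window had a H2ABbd level of 2.49 and a ratio of 2.25. Without the 21-read bin it had a H2ABbd level of 4.16 and a ratio of 3.33 (2.47 to 4.45). The first 30 kb of the domain, at 4.88, lay below the Meg3 window as measured but above it without that bin, and also with every read kept (2.56), so the order of these subregions is not fixed. The 10 kb between the control region and Meg3 had 19 H2ABbd reads and 33 5mC reads, levels of 3.05 (1.84 to 4.77) and 0.929 (0.639 to 1.30). Of these, 3 and 21 lay in its first 7 bins, so the low stretch parted the control region from the reads at Meg3.

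Around Dlk1 the libraries stood near the domain mean. The Dlk1 window (110680001 to 110710000) held 48 H2ABbd reads, a level of 2.57 (1.90 to 3.41), and 152 5mC reads, a level of 1.43 (1.21 to 1.67). Neither density differed from that of the rest of the domain beyond counting error (0.867 times, 0.637 to 1.16, and 1.09 times, 0.923 to 1.28). In the 10 kb from the Dlk1 position the H2ABbd level was 3.70 and the ratio 3.16, against 1.82 in the 30 kb window, so the value depends on the window. The Meg3 window had 2.00 times the H2ABbd density of the Dlk1 window (1.40 to 2.89) and 0.895 times its 5mC density (0.705 to 1.14).

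The 200 kb after the Meg3 window, which hold Rian and Mirg, were the least covered subregion in the library labelled H2ABbd, with 280 reads, a level of 2.25 (1.99 to 2.53). The library labelled 5mC had 792 reads there, a level of 1.11 (1.04 to 1.20). Densities were 0.714 (0.625 to 0.812) and 0.816 (0.755 to 0.882) times those of the rest of the domain. Of its bins, 51.0% held no H2ABbd read and 5.00% no 5mC read, compared with 36.6% and 2.67% over the whole domain. One bin in it, from 110828001 to 110829000, held 21 H2ABbd reads and 7 5mC reads, the other bin at the maximum of the domain. The gene order puts Rtl1 between Meg3 and Rian, and which gene this bin lies in, if any, was not determined.

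A run of 6 neighbouring 10 kb windows in this stretch, 110880001 to 110940000, had ratios below 1, the longest such run in the domain. It was singled out after its values were seen. It held 16 H2ABbd reads, a level of 0.429 (0.245 to 0.696), and 173 5mC reads, a level of 0.812 (0.695 to 0.942), with a ratio of 0.533 (0.298 to 0.891). The proximal flank had a run of the same length, at 0.651 (0.394 to 1.02), and 18.4% of autosomal 60 kb windows had a ratio as low. In the domain 16 of 90 windows of 10 kb had a ratio below 1, against 28 of 165 in the proximal flank and 19 of 145 in the distal flank. The 3 lowest windows by ratio were 110910001 to 110920000 (2 H2ABbd and 44 5mC reads), 111370001 to 111380000 (3 and 44) and 111030001 to 111040000 (2 and 26).

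Around Dio3 the library labelled 5mC stood above the rest of the domain, as it did in the control region and in the first 30 kb of the domain. The Dio3 window (111500001 to 111540000) held 86 H2ABbd reads, a level of 3.46 (2.76 to 4.27), and 239 5mC reads, a level of 1.68 (1.48 to 1.91). Only the 5mC density was above that of the rest of the domain beyond counting error, 1.30 times (1.14 to 1.48), against 1.18 times (0.938 to 1.47) for H2ABbd. The ratio of the libraries was 0.907 times that of the rest (0.695 to 1.17), so the libraries did not differ there beyond counting error. The 10 kb from the Dio3 position held 9 H2ABbd reads and 67 5mC reads, and no 10 kb window of the domain had more 5mC reads, though 3 others also held 67, among them the window from 110760001 that holds the control region. Its ratio was 0.775 (0.340 to 1.56), below 1, whereas that of the 40 kb window was 2.08 (1.60 to 2.67).

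The stretch between Mirg and Dio3 (111010001 to 111500000) had levels of 2.84 (H2ABbd) and 1.35 (5mC) and a ratio of 2.12 (1.96 to 2.29). The first 30 kb of the domain, before the Dlk1 window, had levels of 4.88 (3.93 to 5.99) and 1.65 (1.42 to 1.91). Its densities were 1.69 times (1.35 to 2.09) and 1.27 times (1.09 to 1.48) those of the rest of the domain. The last 10 kb had 20 and 32 reads, levels of 3.22 (1.96 to 4.97) and 0.901 (0.616 to 1.27).

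**Figure D4:**
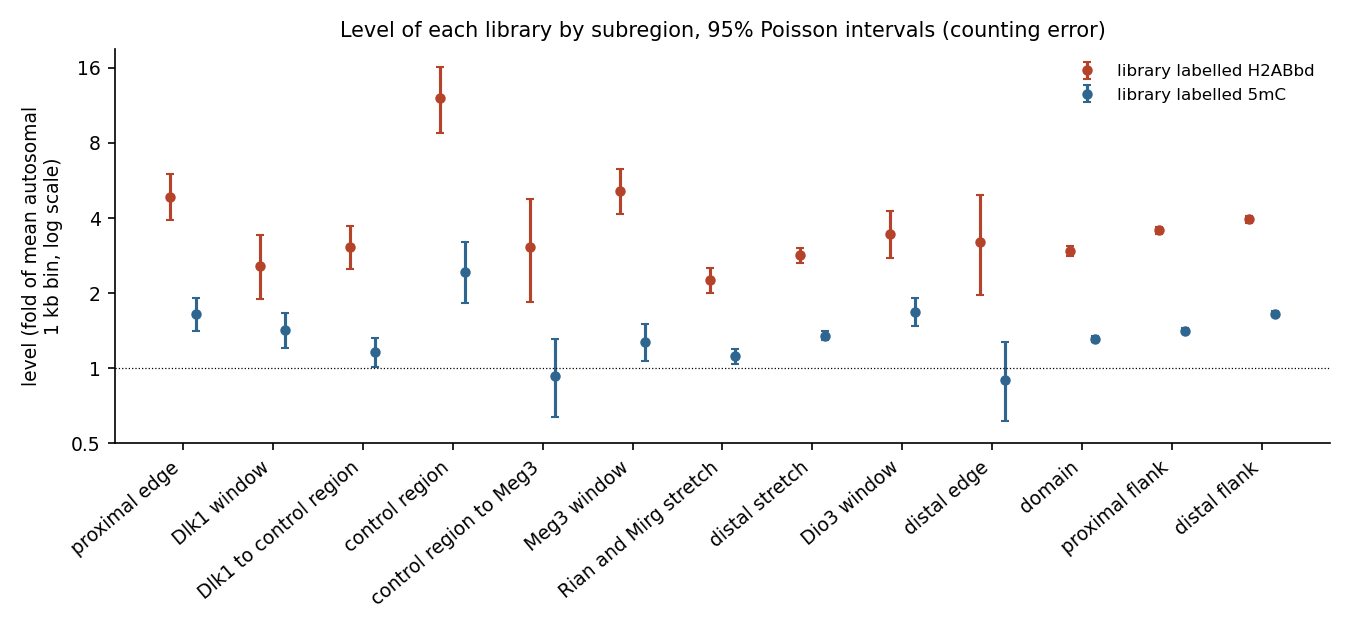
Level of each library (fold of the mean autosomal 1 kb bin, log scale) in the subregions from the proximal to the distal end, then in the whole domain and its flanks, with 95% Poisson intervals of counting error. The control region is highest in both libraries, at 12.1 and 2.44. The Meg3 window, at 5.14 and 1.28, stands above the whole domain (2.95 and 1.31) in the library labelled H2ABbd alone.

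Single bins were called enriched per library by a Poisson tail against the mean of their chromosome, adjusted over all bins (Benjamini-Hochberg 0.01), and at least 4-fold. This call filters the bins of 1 library and tests no difference between libraries. Of 880 bins with a read, 70 were called in the library labelled H2ABbd, 7.95% against 1.18% of the genome, and 12 in the library labelled 5mC, 1.36% against 0.508%. In the flanks the shares were 11.5% and 2.23%, so the domain had smaller shares of called bins than its surroundings. With every read kept, 37 H2ABbd bins were called, and after thinning 0 5mC bins, genome-wide shares at these settings not being given. A H2ABbd call needed 6 reads and a 5mC call 14. Of the 70 H2ABbd bins 52 stood alone.

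The control region had 3 of 6 bins called for H2ABbd and 1 for 5mC. In the Meg3 window 6 of 29 bins with a read were called for H2ABbd (20.7%) and 0 for 5mC. The Dio3 window had 5 of 40 (12.5%) and 0, the Dlk1 window 2 of 30 (6.67%) and 0, and the proximal edge 3 of 30 (10.0%) and 2 (6.67%). The long stretches had smaller H2ABbd shares than the whole domain, with 10 of 191 (5.24%) in the Rian and Mirg stretch and 35 of 480 (7.29%) in the distal stretch. Their 5mC calls were 2 (1.05%) and 7 (1.46%). The stretch between the control region and Meg3 had 2 of 10 bins called for H2ABbd (20.0%), near the share of the Meg3 window. The stretch from the Dlk1 window to the control region had 4 of 54 (7.41%), and the last 10 kb of the domain 0 of 10. These 3 subregions had 0 5mC calls. Held against the mean of the domain and its flanks in place of the chromosome mean, 11 H2ABbd bins were left, 1.25% against 2.57% of the domain and flanks together. For 5mC 1 bin was left, 0.114% against 0.153%. The 11 were 2 in the control region, 2 adjoining bins in the Meg3 window, the 21-read bin at 110828001, and 6 others, of which 1 lay in the Dio3 window, 4 in the distal stretch and 1 in the proximal edge.

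In 6 of 880 bins both libraries were called, 0.122% of bins being so genome-wide. In the flanks 25 of 3051 were, and whether this share differs from the domain's was not tested. The 6 made up 8.57% of the domain's 70 H2ABbd calls and 50.0% of its 12 5mC calls. Genome-wide 2811 bins were shared, out of 27187 H2ABbd calls and 11677 5mC calls. The 25 in the flanks were out of 350 and 68 calls. One of the 6 in the domain was the bin at 110765001 in the control region, with 12 H2ABbd and 16 5mC reads. The densest was 111095001 to 111096000, with 13 H2ABbd reads (17.7-fold, 9.42 to 30.3) and 24 5mC reads (6.97-fold, 4.47 to 10.4), the most 5mC reads of any bin of the domain. The bin 110670001 to 110671000, before the Dlk1 window, held 14 and 20. The others, 111163001, 111254001 and 111409001 in the distal stretch, held 6 and 14, 7 and 16, and 9 and 15.

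The most covered bins, chosen by their counts in each library, differed in their mix of reads. Whether they form separate kinds was not tested. The 21-read bins past Meg3 and at 110828001 lay 28.6-fold (17.7 to 43.7) above the chromosome mean for H2ABbd, and at 1.74-fold (0.639 to 3.79) and 2.03-fold (0.817 to 4.19) of it for 5mC. The bins 111179001, 111321001 and 111466001 each held 13 H2ABbd reads, with 9, 10 and 5 5mC reads. In the other direction 111387001 to 111388000 held 0 H2ABbd reads and 17 5mC reads, and 111189001 held 2 and 17. The count of 0 at 111387001 has an upper bound of 5.02-fold of the chromosome mean, so absence of H2ABbd from a single bin was not detectable.

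Across the 880 bins the counts of the libraries were weakly correlated, with Pearson r = 0.302 and Spearman rho = 0.299 of log2(RPM + 0.1), and 0.310 and 0.345 in the flanks. In 10 kb windows r was 0.634 over 90 windows and 0.692 over 310 windows of the flanks. Bins share their libraries and are no replicates, so these values describe the domain only. After thinning to equal depth r was -0.251 over the bins that still held a read in either library, and negative in all 20 draws. Over the same 880 bins as before it was positive in all 20 (0.0792 to 0.226), so the sign rests on which empty bins are left out. At the 70 H2ABbd-called bins the mean 5mC level was 2.02, against 1.28 at the other 810, and in the flanks it was 2.19 against 1.47. At the 12 5mC-called bins the mean H2ABbd level was 9.91, against 2.92 at the other 868, and in the flanks it was 9.17 against 3.69.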

How the data were processed

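The authors deposited 1 line per aligned read of 42 bp, aligned to mm9 with Bowtie after FastQC, per the submitters' processing notes. Versions and settings: not given in the sources used here. Per the labels' protocols, the ChIP library had 20 PCR cycles and the MeDIP library 15. The score in the deposited files is 255 for each read with intact separators, and went into no result. The 8 (H2ABbd) and 1 (5mC) lines with broken separators were dropped. RPM was computed here from distinct reads. Counts per bin, levels, ratios and calls were computed with Python 3.11.15, numpy 2.4.6, scipy 1.17.1 and pandas 2.3.3, and drawn with matplotlib 3.10.9. Calls were adjusted over the 2299806 bins that held at least 1 read, and the step was tested on simulated data. Intervals are exact Poisson (levels), exact Clopper-Pearson conditional on the sum (ratios, strand shares) or conditional odds ratios. PCR reads are not independent molecules, so they cover counting error only. Named bins are the control region's, those called in both libraries and the 8 highest called per library. Named windows of 10 kb are the 3 highest and 3 lowest by ratio and by reads of each library. The domain, its subregions and these choices were set with earlier results of these data known. Alternatives changed the treatment of repeated reads, the shift, depth, scale, bin size, call thresholds, flank length and window bounds. The thinning of 5mC reads was planned as 1 random draw, and 19 further draws were added after its values were seen. Labels could not be checked against the sequence content of enriched bins, since no mm9 sequence was used here.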

Additional observations from a re-analysis of the deposited data

How the results depend on the processing

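Below, values of the library labelled H2ABbd come first. With every read kept, domain levels were 1.48 and 1.19, the ratio 1.27, the control region's H2ABbd level 6.08 and ratio 2.74, and 37 H2ABbd bins were called. Against the mean of chromosome 12 the levels were 2.50 and 1.35, and scaled by its reads the ratio was 1.85. Without the most covered bins the H2ABbd level was 3.20, the ratio 2.42 and the H2ABbd density over the flanks 0.831. With flanks of 450 kb the densities over the flanks were 0.871 and 0.922. Thinning the library labelled 5mC to equal depth left 648 of its reads in the domain, with a ratio of 2.55, a 5mC density over the flanks of 0.779 and a ratio over that of the flanks of 1.01, turned from 0.918. This planned draw was the lowest in 5mC reads of 20 draws, the others added after its values were seen, whose medians were 720.5 reads, 2.29 and 0.940. Thinning also turned r to -0.251, but over the bins of full depth the median r was 0.144, and it left 32, 0 and 0 bins called (H2ABbd, 5mC, both). In the same order, 15, 2 and 2 were called at a stricter adjusted threshold, 41, 0 and 0 in 5 kb bins, and 11, 1 and 1 against the regional mean. At 8-fold 0 5mC bins and 0 shared bins were left. The domain has fewer bins at 5 kb than at 1 kb, so 41 is not to be read as a fall in the share called. Apart from the regional mean, shares over all bins are not given for these settings, so their counts describe the domain alone. In larger bins r was 0.525 (5 kb) and 0.634 (10 kb). Widening the control region gave a H2ABbd level of 7.56. Unshifted reads put the 5mC level between the control region and Meg3 at 1.01, and the 10 kb Dio3 window had a ratio of 0.775. Settings added after the results were seen gave H2ABbd levels of 3.13 (without the low run) and 3.36 with a ratio of 2.52 (every read, most covered bins left out). With the antibodies of the file names the ratio was 0.439. Beyond the settings' own construction, the causes were not tested. Depth limits single bins, since 36.6% held no H2ABbd read. No paired analysis was possible because each group has 1 library.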

Other observations

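Fine positions within the densest stretches were not part of the comparisons above. In steps of 250 bp, the control region's H2ABbd reads gathered at 1.75 kb from its start (8 reads) and at 2.50 kb (11 reads), while its 5mC reads were highest at 1.5 kb (9 reads). In the first 10 kb from the Meg3 position, H2ABbd reads were highest at 7.75 kb (12 reads) and 8.00 kb (10 reads), where the library labelled 5mC had at most 4 reads in a step. On the plus strand lay 49.2% of the H2ABbd reads of these 10 kb (36.1 to 62.3%) and 40.0% of the 5mC reads (25.7 to 55.7%), and 1 position held at most 4 reads.

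Over the domain as a whole each distinct position held 1.28 reads (H2ABbd) and 1.05 reads (5mC), close to 1.30 and 1.05 in the flanks. In 20 of the 900 bins neither library had a read, and 9 of these lay in the Rian and Mirg stretch and 10 in the distal stretch.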
